A study of Mus musculus with 12 samples.

Results

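The alpha-2,6 and alpha-2,8 sialyltransferases considered here are 10 genes taken by name: St6gal1, St6galnac1 to St6galnac6, St8sia1, St8sia4 and St8sia6. They occupy 11 gene identifiers, because the tables give the name St6galnac2 to a pair of identifiers, of 55425 identifiers present in all 12 tables of the series. RNA was sequenced from the murine ovarian cancer line HM1 in 4 groups with 3 libraries each: shST3GAL3 culture, shControl culture, shST3GAL3 tumors and shControl tumors. The shST3GAL3 groups carry a short hairpin RNA that knocks down the alpha-2,3 sialyltransferase gene St3gal3, and the labels give their genotype as ST3GAL3 knockdown. The shControl groups carry a control hairpin and have the genotype wild type in the labels. All groups share the HM1 line. How many hairpins or clones stand behind a group, and the strain, age, number and tumor site of the host mice, are not given in the sources used here. Nor do the labels say that libraries within a group had their own culture or animal, so p-values reflect the spread of these libraries alone, which may be technical.

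Sialyltransferases are Golgi enzymes that move sialic acid from CMP-sialic acid to the end of a glycan. ST6GAL enzymes place it in alpha-2,6 linkage on galactose of N-glycans, ST6GALNAC enzymes place it in alpha-2,6 linkage on N-acetylgalactosamine of O-glycans and gangliosides, and ST8SIA enzymes extend an existing sialic acid in alpha-2,8 linkage. ST3GAL enzymes, the family of the hairpin's target, use many of the same galactose ends, which makes levels of the other families of interest when a St3gal gene is knocked down. ST6GAL1 is widely studied in ovarian and other carcinomas, and its product is the glycan bound by the B cell receptor CD22.

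Values are TPM, each gene's length-scaled share of the transcripts in its library. Such values are scaled for gene length and can therefore be set against each other between genes. The depth of the libraries is unknown, since TPM keeps none. Culture libraries had 12629 to 13145 genes at 1 TPM or more, and tumor libraries 14046 to 14534. St3gal3 was at 1.52, 1.25 and 1.83 TPM in shST3GAL3 culture, against 9.59, 12.52 and 12.93 TPM in shControl culture. In shST3GAL3 tumors it was at 7.28, 5.87 and 5.76 TPM, against 14.00, 15.39 and 15.36 TPM in shControl tumors. Of 8 epithelial and ovarian markers, the keratin genes Krt8, Krt18 and Krt19 were abundant in culture, while Epcam, Cdh1, Pax8 and Wt1 were under 1 TPM in each culture library. Skeletal muscle markers summed to 68.83 TPM in shST3GAL3 tumor 1 and 52.74 TPM in shST3GAL3 tumor 3, and to at most 11.46 TPM in the other 4 tumors.

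Across the family, few members carried most of the transcripts. Of the 11 identifiers, 3 (St6gal1, St6galnac4 and St6galnac6) were at 1 TPM or more in every library, and 5 had a group mean of at least 1 TPM once St6galnac2 and St8sia4 are added. The other 6 stayed under 1 TPM everywhere, with a highest value of 0.81 TPM. St6galnac4 was first in the culture libraries except shControl culture 3, where St6galnac6 was first. St6galnac6 was first in the 3 shControl tumors and in shST3GAL3 tumor 3. St6gal1 came next after these genes in all 12 libraries. Their ranges overlapped in each group except shControl tumors, where St6galnac6 lay above St6galnac4, and shST3GAL3 culture, where 24.71 TPM, the lowest value of St6galnac4, was just above 24.60 TPM, the highest of St6galnac6. The plot of the detected members shows these levels.

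**Figure D1:**
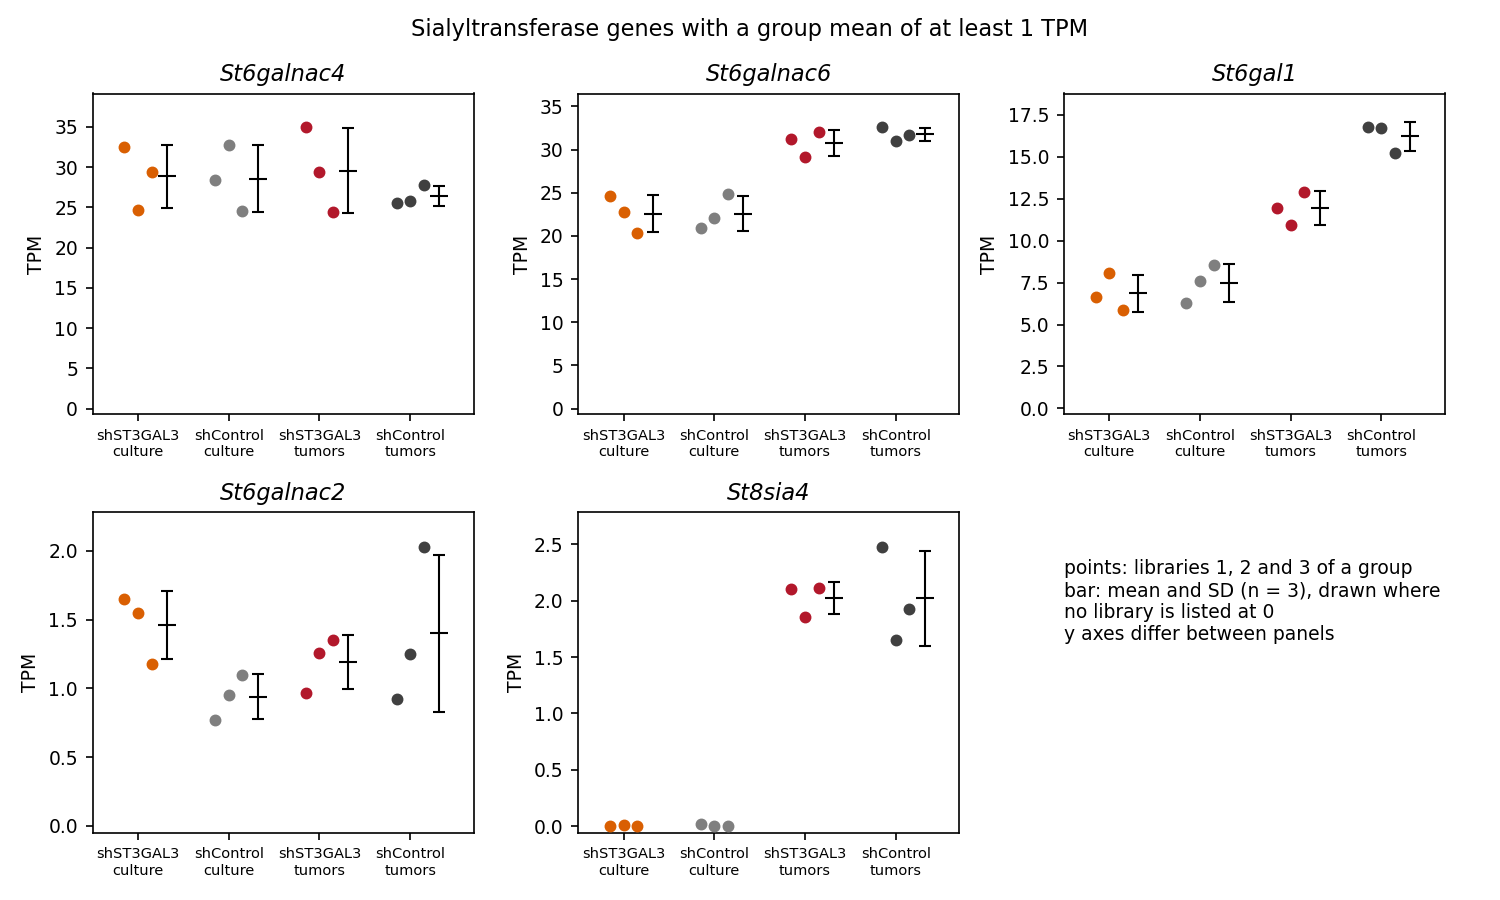
TPM (y axis, own scale in each panel) of the 5 genes with a group mean of at least 1 TPM, by group on the x axis; points are libraries and bars are the mean and SD of 3 libraries. St6gal1 lies at 10.92 to 12.92 TPM in shST3GAL3 tumors and 15.23 to 16.74 TPM in shControl tumors, and St8sia4 is at or near 0 in culture and at 1.65 to 2.48 TPM in tumors.

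The starts of St6gal1 and St6galnac4 are shown because these genes are the member with the clearest separation between tumor groups and the most abundant member of cultured cells on average, and because they differ in their upstream sequence. The sequences are the 250 bases before the annotated start, on the plus strand, from RefSeq on build GRCm38.p6, which is not the build GRCm39 of the expression tables. St6gal1 has 3 annotated starts on chromosome 16 and St6galnac4 has 1 on chromosome 2. Capitals mark GC boxes, the letters GGGCGG or CCGCCC on either strand, a motif known to be bound by Sp1-family factors.
St6gal1 start 1, chr16:23224490-23224739: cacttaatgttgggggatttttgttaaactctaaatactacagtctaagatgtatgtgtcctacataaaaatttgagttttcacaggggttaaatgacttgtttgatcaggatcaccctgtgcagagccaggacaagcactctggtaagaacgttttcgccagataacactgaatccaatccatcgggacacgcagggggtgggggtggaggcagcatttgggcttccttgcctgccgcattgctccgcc
St6gal1 start 2, chr16:23225771-23226020: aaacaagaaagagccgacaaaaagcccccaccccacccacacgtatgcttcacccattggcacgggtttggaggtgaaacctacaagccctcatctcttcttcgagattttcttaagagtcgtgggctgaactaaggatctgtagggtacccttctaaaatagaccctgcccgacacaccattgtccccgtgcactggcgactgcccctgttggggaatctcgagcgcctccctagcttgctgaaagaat
St6gal1 start 3, chr16:23290220-23290469: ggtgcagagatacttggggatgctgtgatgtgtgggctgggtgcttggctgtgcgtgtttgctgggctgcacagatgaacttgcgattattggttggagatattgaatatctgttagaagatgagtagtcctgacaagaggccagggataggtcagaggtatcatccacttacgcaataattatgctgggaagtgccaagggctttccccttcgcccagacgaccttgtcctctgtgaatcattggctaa
St6galnac4, chr2:32586828-32587077: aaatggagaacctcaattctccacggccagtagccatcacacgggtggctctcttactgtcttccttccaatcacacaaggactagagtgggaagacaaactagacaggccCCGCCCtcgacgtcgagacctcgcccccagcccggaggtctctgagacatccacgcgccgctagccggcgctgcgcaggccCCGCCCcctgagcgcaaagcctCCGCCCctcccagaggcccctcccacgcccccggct
The St6galnac4 window held 3 GC boxes and 19 CpG dinucleotides. The 3 St6gal1 windows held 0 GC boxes and 6, 10 and 5 CpG dinucleotides. Over all 32851 windows of this length, 32.7% held a GC box, and the median window held 6 CpG dinucleotides (quartiles 2 and 16). Windows were found for 7 of the 10 members, 9 windows in all, and CpG counts of the others ran from 2 for St6galnac6 to 30 for St8sia6. None of the 9 windows held TTCNNNGAA, the gamma-activated site bound by STAT factors (present in 7.02% of all windows), or the core of the interferon-stimulated response element (2.98%), or TATAAA, the TATA box (12.4%), on either strand. These are matches of letters in a window and say nothing of binding.

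St6gal1 (ENSMUSG00000022885) encodes the enzyme that caps N-glycan galactose with alpha-2,6 sialic acid. In culture it was at 6.64, 8.05 and 5.89 TPM with the St3gal3 hairpin, against 6.30, 7.57 and 8.53 TPM in shControl culture. These ranges overlap, and the log2 change on the log2(TPM + 1) scale was -0.11 (SE 0.159, 95% interval -0.48 to 0.26, limma adjusted p = 1.00), and -0.21 to -0.02 over the omission of single libraries. In shST3GAL3 tumors it was at 11.95, 10.92 and 12.92 TPM, against 16.74, 16.68 and 15.23 TPM in shControl tumors. Every tumor with the knockdown was thus below every control tumor, with a mean of 11.9 ± 1.00 TPM in shST3GAL3 tumors and 16.2 ± 0.855 TPM in shControl tumors (SD, n = 3 each) and a ratio of 0.736. The log2 change in tumors was -0.41 (SE 0.0922, 95% interval -0.63 to -0.20), with a limma p of 0.00265 before and 0.0855 after Benjamini-Hochberg adjustment over 14915 genes, which does not pass 0.05. Separation of the tumor groups in this direction was found for 14.9% of all genes tested, and 3.07% of them had a smaller p than St6gal1. With array weights, which let limma give less weight to more variable libraries, St6gal1 passed (log2 change -0.43, SE 0.0851, limma adjusted p = 0.0395), and over the other settings the adjusted p ran up to 0.251, without shST3GAL3 tumors 1 and 3, where the log2 change was -0.53. The change in tumors minus that in culture was -0.31 (SE 0.181, 95% interval -0.70 to 0.09, limma adjusted p = 0.566), and -0.40 to -0.20 over omissions, so a difference between tumors and culture was not shown.

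Several cell type markers differed between the same tumors. The 8 epithelial and ovarian markers summed to 2565 to 2830 TPM in shST3GAL3 tumors and to 3231 to 3437 TPM in shControl tumors, with Epcam and Pax8 under 1 TPM in all 6. Most of this sum was Krt8, Krt18 and Krt19. Of the others tested, Msln was lower with the knockdown (log2 change -0.64), Cdh1 overlapped (-0.10) and Wt1 went the other way (0.23). The 4 pericyte markers summed to 34.65 to 47.46 TPM in shST3GAL3 tumors and to 54.71 to 74.18 TPM in shControl tumors. Both of these ranges were lower with the knockdown, without overlap. Higher without overlap were the 10 markers of T and NK cells, with 93.43 to 103.4 TPM in shST3GAL3 tumors and 33.63 to 54.58 TPM in shControl tumors, and the 5 mast cell markers, with 93.75 to 127.1 TPM in shST3GAL3 tumors and 28.79 to 48.89 TPM in shControl tumors. No background was computed for the separation of such sums. The mast cell marker Kit went the other way (log2 change -0.26). Limma called 3 of 10 tested T and NK cell markers, 3 of 5 mast cell markers and 1 of 4 pericyte markers. Of 6 tested epithelial and ovarian markers it called 0. The share called over all genes tested in tumors was 1.51%. Limma also called 1 of 6 fibroblast markers, Fap, lower in shST3GAL3 tumors (log2 change -0.89, limma adjusted p = 0.0148). Of the other fibroblast markers, Lum and Pdgfra went the other way (0.29 and 0.05). The fibroblast sums overlapped, at 493.04 to 753.88 TPM in shST3GAL3 tumors and 748.21 to 1047.41 TPM in shControl tumors. Of 8 monocyte and macrophage markers limma called 1, Ly6c2, higher in shST3GAL3 tumors (1.85, limma adjusted p = 0.0139). Endothelial markers had 0 calls of 6, with 3 at an unadjusted p under 0.05 and a median log2 change of -0.39, and 0 of the 6 had a positive change. Over all genes tested in tumors, 18.7% had an unadjusted p under 0.05 and the median log2 change was -0.05. The part of these markers in the St6gal1 values was not tested, and in bulk tissue fewer cells of a type and less RNA per cell cannot be told apart. B and plasma cells, in which ST6GAL1 is known to be prominent, had marker sums of 8.06 to 34.21 TPM in shST3GAL3 tumors and 3.44 to 15.95 TPM in shControl tumors, ranges that overlap. Of the 7 B and plasma cell markers, Ms4a1 and Cd79a were among those under 1 TPM in every tumor, with Ms4a1 at no more than 0.11 TPM. The 4 markers tested all had a positive log2 change (median 0.72), with 0 called. Jchain averaged 14.4 TPM in shST3GAL3 tumors and 4.92 TPM in shControl tumors. Mzb1 averaged 6.95 TPM in shST3GAL3 tumors and 2.03 TPM in shControl tumors, and both genes overlapped between the groups.

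Set against cultured cells, St6gal1 was higher in tumors of both lines. Its tumor mean was 2.17 times the culture mean in the shControl groups and 1.74 times in the shST3GAL3 groups, with no overlap in either. Such ratios are descriptions with no test, because TPM is a share within each library and tumors hold host cells that the cultures lack. The share of all genes that separate tumors from culture was not computed, so the lack of overlap cannot be weighed. Culture and tumor libraries also differed in the number of genes listed (56061 and 55878).

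Among the O-glycan enzymes, St6galnac4 (ENSMUSG00000079442) was the most abundant. It adds alpha-2,6 sialic acid to the N-acetylgalactosamine of an O-glycan whose galactose already carries an alpha-2,3 sialic acid, so it acts after an ST3GAL enzyme. Levels were 32.54, 24.71 and 29.33 TPM in shST3GAL3 culture, against 28.34, 32.77 and 24.51 TPM in shControl culture, which overlap almost fully. The log2 change in culture was 0.02 (SE 0.141, 95% interval -0.32 to 0.35, limma adjusted p = 1.00). In shST3GAL3 tumors levels were 34.93, 29.37 and 24.37 TPM, against 25.53, 25.78 and 27.81 TPM in shControl tumors. The shift was smaller than the spread between knockdown tumors, with a mean of 29.6 ± 5.28 TPM in shST3GAL3 tumors and 26.4 ± 1.25 TPM in shControl tumors (SD, n = 3 each) and a log2 change of 0.15 (SE 0.128, 95% interval -0.16 to 0.45, limma adjusted p = 0.568). That change was 0.02 without shST3GAL3 tumor 1 and 0.27 without shST3GAL3 tumor 3. Its levels in tumors and in culture also overlapped, with ratios of 1.02 in the shST3GAL3 groups and 0.924 in the shControl groups.

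St6galnac2 (ENSMUSG00000057286), which sialylates core N-acetylgalactosamine of O-glycans, was near the detection filter of 1 TPM. It was at 1.65, 1.55 and 1.18 TPM in shST3GAL3 culture, against 0.77, 0.95 and 1.10 TPM in shControl culture. All 3 knockdown libraries were above the control ones, a separation found in this direction for 5.25% of genes tested in culture, and the ratio of means was 1.55. The log2 change was 0.34 (SE 0.214, 95% interval -0.16 to 0.84, limma adjusted p = 1.00), which does not pass the threshold. With a pseudocount of 0.1 it was 0.58, still not called. A second identifier of the same name (ENSMUSG00000110170) lies within the first on the same strand in the GENCODE M21 annotation, so how reads were split between them is uncertain. Summing both identifiers, a choice made after seeing the data, gave 1.22 to 1.88 TPM in shST3GAL3 culture and 0.98 to 1.43 TPM in shControl culture, which overlap. In tumors the first identifier was at 0.97, 1.26 and 1.35 TPM with the knockdown, against 0.92, 1.25 and 2.03 TPM in shControl tumors, with a log2 change of -0.11 (SE 0.210, 95% interval -0.60 to 0.39, limma adjusted p = 0.798). The difference between the changes in tumors and in culture was -0.45 (SE 0.245, 95% interval -0.99 to 0.09, limma adjusted p = 0.532), with -0.74 at a pseudocount of 0.1 and -0.27 without shControl tumor 3.

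St6galnac1, the enzyme that makes the sialyl-Tn antigen, was listed at 0 in all 12 libraries. Whether these zeros are failed estimates cannot be told. Of genes with a median of at least 4 TPM, 0.891% in culture and 0.692% in tumors were listed at 0 in some library. No member was among them. A gene at 0 throughout cannot enter that count, so the count does not bear on St6galnac1. St6galnac3, an enzyme of sialylated O-glycans and gangliosides, was listed at 0 in the 3 shST3GAL3 cultures, against 0, 0.01 and 0.01 TPM in shControl culture. In shST3GAL3 tumors it was at 0.03, 0.05 and 0.35 TPM, against 0.81, 0.18 and 0.21 TPM in shControl tumors. The tumor ranges overlap, and shControl tumor 1 alone set the highest value of the low members.

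**Figure D2:**
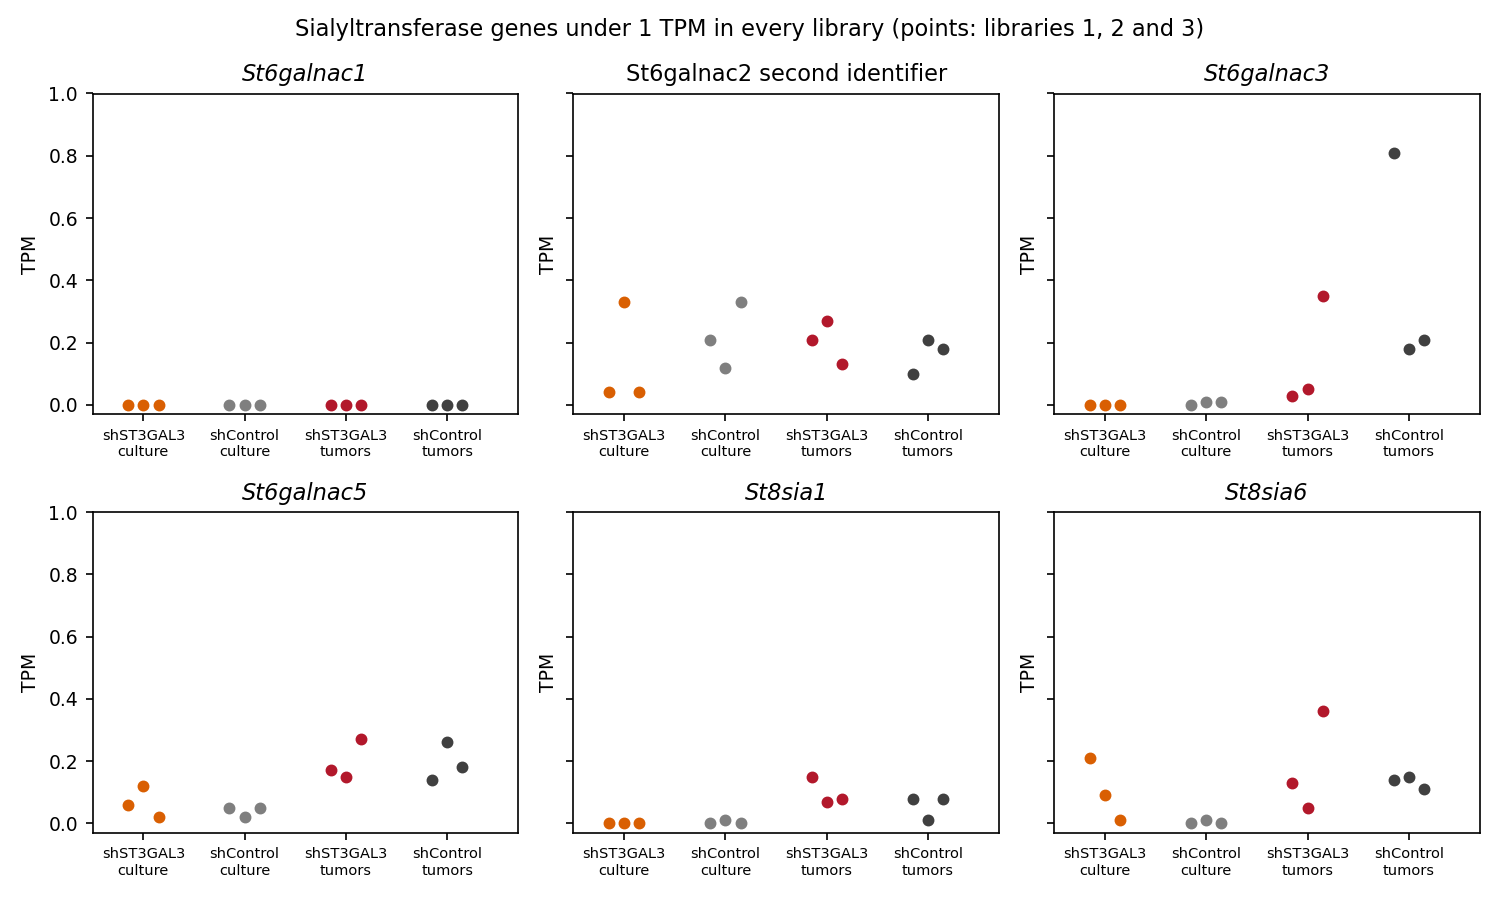
TPM (y axis) of the 6 identifiers under 1 TPM in every library, by group on the x axis, with 1 point per library. St6galnac1 is at 0 throughout, and the highest point is St6galnac3 in shControl tumor 1 at 0.81 TPM.

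Of the ganglioside enzymes, St6galnac6 (ENSMUSG00000026811) was detected throughout. It forms alpha-series gangliosides, and in human cells also the disialyl Lewis a antigen. Levels were 24.60, 22.81 and 20.34 TPM in shST3GAL3 culture, against 20.86, 22.05 and 24.84 TPM in shControl culture, with means of 22.6 ± 2.14 TPM in shST3GAL3 culture and 22.6 ± 2.04 TPM in shControl culture (SD, n = 3 each). The 95% interval of the log2 change in culture was -0.26 to 0.26 (limma adjusted p = 1.00). In shST3GAL3 tumors it was at 31.18, 29.09 and 32.04 TPM, against 32.57, 31.03 and 31.70 TPM in shControl tumors, a log2 change of -0.05 (SE 0.0694, 95% interval -0.21 to 0.12, limma adjusted p = 0.744). This was the narrowest tumor interval of the members tested. Tumor means were 1.36 times the culture mean in the shST3GAL3 groups and 1.41 times in the shControl groups, without overlap. The share of all genes separated in this way was not computed. St6galnac4, the neighbour of St6galnac6 on the same strand of the chromosome, overlapped between tumors and culture.

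The remaining ganglioside enzymes were scarce. St6galnac5, which makes the ganglioside GD1-alpha, was at 0.06, 0.12 and 0.02 TPM in shST3GAL3 culture, against 0.05, 0.02 and 0.05 TPM in shControl culture. In shST3GAL3 tumors it was at 0.17, 0.15 and 0.27 TPM, against 0.14, 0.26 and 0.18 TPM in shControl tumors. Tumors lay above culture in both lines, at levels under the filter of 1 TPM and with no share over all genes computed for comparison. St8sia1, the synthase of the ganglioside GD3, was listed at 0 in 3 shST3GAL3 cultures, against 0, 0.01 and 0 TPM in shControl culture. It was at 0.15, 0.07 and 0.08 TPM in shST3GAL3 tumors, against 0.08, 0.01 and 0.08 TPM in shControl tumors, so both tumor groups stayed near 0.

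St8sia4 (ENSMUSG00000040710), a polysialyltransferase that builds long alpha-2,8 chains on carriers such as NCAM1, was at no more than 0.02 TPM in culture and at 1.65 TPM or more in tumors. It was at 0, 0.01 and 0 TPM in shST3GAL3 culture, against 0.02, 0 and 0 TPM in shControl culture. In shST3GAL3 tumors it was at 2.10, 1.86 and 2.11 TPM, against 2.48, 1.65 and 1.93 TPM in shControl tumors. The tumor groups overlapped, with means of 2.02 ± 0.142 TPM in shST3GAL3 tumors and 2.02 ± 0.422 TPM in shControl tumors (SD, n = 3 each), and the log2 change was 0.01 (SE 0.150, 95% interval -0.34 to 0.36, limma adjusted p = 0.978). The 8 monocyte and macrophage markers summed to 1197 to 1498 TPM in shST3GAL3 tumors and 1214 to 1595 TPM in shControl tumors, against 44.31 to 46.47 TPM in shST3GAL3 culture and 40.61 to 45.30 TPM in shControl culture. Most of the sum in tumors was Lyz2 and C1qa. Of the 8 markers limma called 1 between the tumor groups, Ly6c2 of inflammatory monocytes. It was at 36.8 ± 7.92 TPM in shST3GAL3 tumors and 9.49 ± 2.19 TPM in shControl tumors (SD, n = 3 each, limma adjusted p = 0.0139). Of the same list, Adgre1 was listed at 0 in all culture libraries and Csf1r was at no more than 0.05 TPM there. Others were detected in every culture library: Cd14 at 21.79 to 24.76 TPM, Cd68 at 12.83 to 17.82 TPM and Mrc1 at 3.14 to 4.63 TPM. Summed markers of the other host cell types, skeletal muscle aside, were also higher in every tumor than in every culture, and the source of St8sia4 transcripts was not tested.

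St8sia6, which adds an alpha-2,8 sialic acid mainly to O-glycans, was low in every group. It was at 0.21, 0.09 and 0.01 TPM in shST3GAL3 culture, against 0, 0.01 and 0 TPM in shControl culture. It was at 0.13, 0.05 and 0.36 TPM in shST3GAL3 tumors, against 0.14, 0.15 and 0.11 TPM in shControl tumors. The groups touch at 0.01 TPM in culture and overlap in tumors, at levels under the filter of 1 TPM.

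Counted over the family, limma called no member in any comparison at an adjusted p under 0.05. In culture 0 of 4 tested members were called, with a background of 0.0296% of 13492 genes. In tumors 0 of 5 were called against 1.51% of 14915 genes, and for the difference between tumors and culture 0 of 5 against 0.754% of 15381 genes. At an unadjusted p under 0.05 the counts were 0 of 4 members in culture (3.42% of all genes), 1 of 5 in tumors, which was St6gal1 (18.7%), and 0 of 5 for the difference (11.1%). No other tool was run, as the tables hold no counts. Median log2 changes of the tested members were 0.01 in culture, -0.05 in tumors and -0.04 for the difference, beside 0.02, -0.05 and -0.06 over all genes. Members that did not reach the filter are not in these counts. With no filter on low values, 0 members were called as well.

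**Figure D3:**
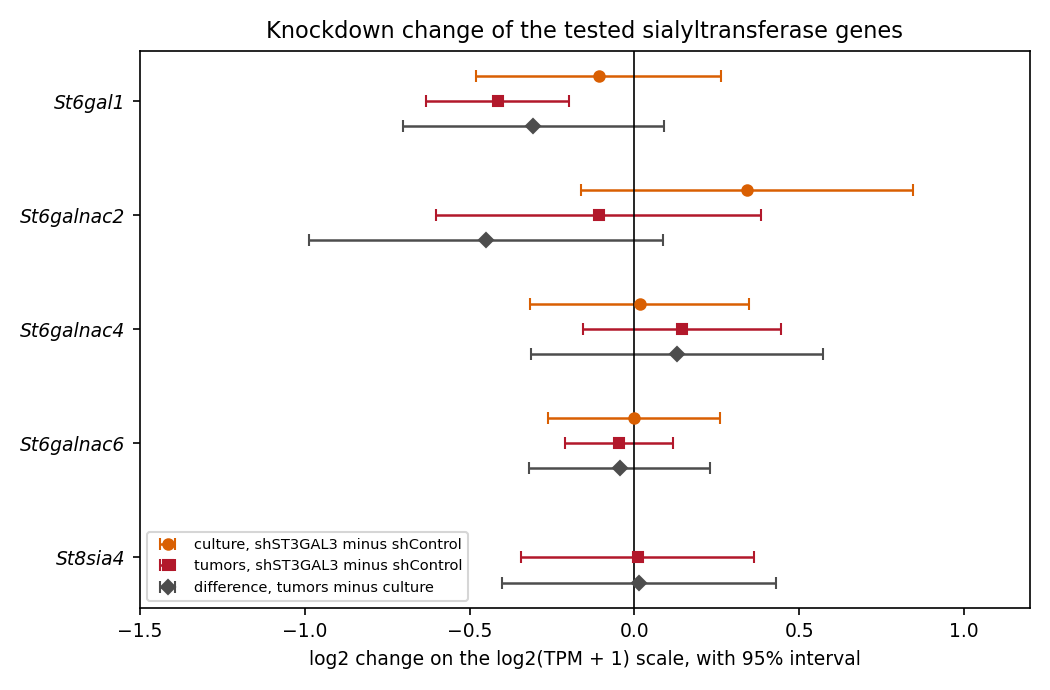
Log2 change of each tested member (x axis, log2(TPM + 1) scale) with its 95% interval from limma, for culture and for tumors (shST3GAL3 minus shControl, n = 3 each) and for the difference between them (tumors minus culture). All intervals cross 0 except that of St6gal1 in tumors, from -0.63 to -0.20.

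Summed levels set the members against the St3gal genes. The alpha-2,6 members summed to 56.80, 57.57 and 65.53 TPM in shST3GAL3 culture, sorted by size, against 56.53, 59.37 and 63.49 TPM in shControl culture. In shST3GAL3 tumors they summed to 71.11, 71.43 and 79.44 TPM, against 75.39, 76.81 and 77.34 TPM in shControl tumors. Sums therefore overlapped within each tissue and were higher in tumors than in culture, a separation for which no background was computed. The alpha-2,8 members summed to at most 0.21 TPM in culture, and to 1.98 to 2.55 TPM in shST3GAL3 tumors and 1.81 to 2.70 TPM in shControl tumors, most of it St8sia4.

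The make-up of the sum differed between tumors. St6gal1 made 14.6 to 17.5% of the members' TPM in shST3GAL3 tumors and 19.2 to 21.6% in shControl tumors, without overlap. In culture its share was 10.1 to 14.0% with the knockdown and 11.1 to 14.4% in shControl cells. St6galnac4 and St6galnac6 together made 76.3 to 80.8% in shST3GAL3 tumors and 73.1 to 74.9% in shControl tumors, the counterpart of the smaller St6gal1 share. Shares of 1 sum move together by construction, so these are not separate results. The St6gal1 share also restates the separation of St6gal1 itself, of a kind found for 14.9% of genes tested in tumors. No background was computed for shares, and the sum leaves out St6gal2, which is not a member.

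The 6 St3gal genes had a sum 3.15 to 3.34 times that of the members in shST3GAL3 tumors and 3.52 to 3.67 times in shControl tumors. Leaving out the target St3gal3, the ratio was 3.06 to 3.26 in shST3GAL3 tumors and 3.34 to 3.48 in shControl tumors, still without overlap. The alpha-2,6 gene St6gal2 is not a member and is not in these ratios. It was at 16.06, 9.87 and 0 TPM in shST3GAL3 tumors, against 0, 4.20 and 7.49 TPM in shControl tumors, so including it would change the tumor ratios unevenly. No background was computed for the separation of such ratios. In culture the ratio without St3gal3 was 3.71 to 4.13 with the knockdown and 3.84 to 4.14 in shControl cells, which overlap. St3gal5, the GM3 synthase, is 1 gene of this sum, at 61.5 ± 3.18 TPM in shST3GAL3 tumors and 80.6 ± 8.10 TPM in shControl tumors (SD, n = 3 each; log2 change -0.38, SE 0.0875, limma adjusted p = 0.0894).

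**Figure D4:**
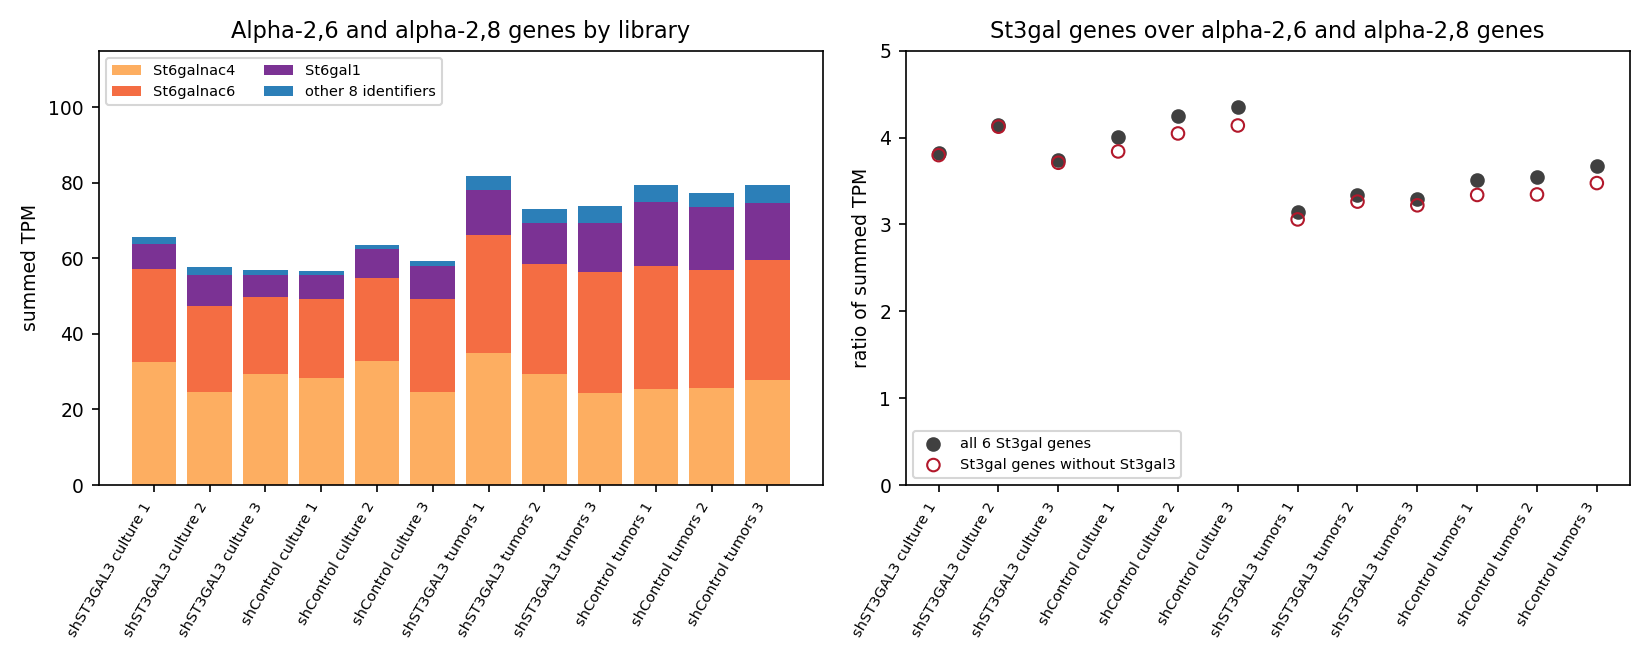
Left, summed TPM of the members in each of the 12 libraries, split into St6galnac4, St6galnac6, St6gal1 and the other 8 identifiers; right, the ratio of summed St3gal TPM to summed member TPM in the same libraries, with and without St3gal3. The ratio without St3gal3 lies at 3.06 to 3.26 in shST3GAL3 tumors and 3.34 to 3.48 in shControl tumors.

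Genes that make the acceptors and the donor of these enzymes gave no call in tumors. Among 10 other sialyltransferases, 7 were tested in tumors, of which 1 fell, the target St3gal3 (log2 change -1.13, SE 0.110, limma adjusted p = 0.00954), and 0 rose. In culture 6 of them were tested, and again 1, St3gal3, fell. For the lists that follow, the background in tumors is 1.51% of all genes called, 18.7% at an unadjusted p under 0.05 and a median log2 change of -0.05. The 12 tested genes of O-glycan acceptor synthesis had 0 calls and a median log2 change of -0.06, with 3 at an unadjusted p under 0.05. The smallest p among them were those of the polypeptide N-acetylgalactosaminyltransferase genes Galnt11 (log2 change -0.22, limma adjusted p = 0.184) and Galnt7 (-0.23, limma adjusted p = 0.194), which start O-glycans. Of 13 genes of N-glycan acceptor synthesis 0 were called and 4 had an unadjusted p under 0.05, with a median of -0.09. Mgat3, which adds the bisecting N-acetylglucosamine, was at 53.7 ± 1.80 TPM in shST3GAL3 tumors and 65.3 ± 4.98 TPM in shControl tumors (SD, n = 3 each; limma adjusted p = 0.127). Bace1, counted in this list and among the 4, makes no acceptor but encodes a protease known to cleave ST6GAL1. It was at 28.4 ± 0.767 TPM in shST3GAL3 tumors and 32.8 ± 0.518 TPM in shControl tumors (SD, n = 3 each; limma adjusted p = 0.170).

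The 5 ganglioside synthesis genes had a median of 0.08 with 0 calls and 0 at an unadjusted p under 0.05. B4galt5 and Ugcg, which make lactosylceramide and glucosylceramide, had log2 changes of 0.19 and 0.13 in tumors (limma adjusted p = 0.403 and 0.519). Of 6 genes listed as polysialic acid carriers 0 were called and 2 had an unadjusted p under 0.05, with a median of -0.15. Cadm1, the cell adhesion molecule SynCAM, had a log2 change of 0.14 (limma adjusted p = 0.244). Golph3 of the same list encodes a Golgi protein that helps retain glycosyltransferases and is not an established carrier of polysialic acid. The 9 tested genes of sialic acid supply and removal had 0 calls and a median of -0.11, with 3 at an unadjusted p under 0.05. Gne, which starts sialic acid synthesis, was at 13.8 ± 0.302 TPM in shST3GAL3 tumors and 16.6 ± 0.980 TPM in shControl tumors (SD, n = 3 each; limma adjusted p = 0.174). Cmas, which makes the donor CMP-sialic acid, was at 35.3 ± 0.916 TPM in shST3GAL3 tumors and 41.3 ± 2.67 TPM in shControl tumors (limma adjusted p = 0.180). In culture 0 genes of these 5 lists were called by limma, and 1 O-glycan gene and 1 supply gene had an unadjusted p under 0.05.

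For each detected member, the genes with the most similar pattern were ranked by the root mean square difference of z-scored log2(TPM + 1) over the 12 libraries, among about 12028 genes. St6gal1 was nearest to Rtn3 (0.109), Dnajc10 (0.141) and Col4a5 (0.144). Rtn3 averaged 102 TPM in shST3GAL3 tumors and 111 TPM in shControl tumors, and Dnajc10 57.3 TPM and 65.1 TPM in the same order. Col4a5, a basement membrane collagen chain, averaged 20.6 TPM in shST3GAL3 tumors and 33.6 TPM in shControl tumors. Its culture means were 10.2 TPM with the knockdown and 11.1 TPM in shControl culture. St6galnac6 was nearest to Tenm4 (0.126), Nsd1 (0.138) and Lsm14a (0.142). St8sia4 was nearest to Tgm1 (0.0388), F13a1 (0.0532) and Osm (0.0571), each at 0.15 TPM or less on average in culture. The nearest genes of St6galnac2 were Tmem234, Sugp2 and Zfp969, at 0.507 to 0.548, and those of St6galnac4 were Fst, Clp1 and Pwwp2b, at 0.515 to 0.669. These distances were several times those of the other members. All of these patterns span culture and tumors, which differ in the number of genes listed, and the tumors hold host cells.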

How the data were processed

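RNA sequencing tables of 12 libraries, 4 groups of 3 named in the titles, were used. The authors deposited TPM values per gene, 1 table per library with listed gene lengths, per the file headers. GRCm39 is the build, and RSEM, HISAT and fastp are the tools, in the submitters' processing notes, with no role, version or setting. As TPM holds no depth, that of each library is unknown and counting intervals cannot be had. Whether counting used strand is not stated in the labels.

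Genes whose mean reached 1 TPM in a group of the fit were tested on log2(TPM + 1) values with limma 3.58.1 under R 4.3.3, using its moderated test with the trend and robust options. Fold changes on this scale understate those of low genes. P-values were two-sided, with Benjamini-Hochberg adjustment over all genes tested, and a gene was called under 0.05. Separate fits of 6 libraries served culture and tumors, and an interaction term over all 12 libraries tested their difference. The script was tested on simulated data. A count test was planned only for tables of counts, which these are not.

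The members, lists, named genes and settings were chosen with earlier results of these data known. From each list of pathway genes the 2 with the smallest p in tumors are named, except 1 gene that is not reported here, and for each member averaging 1 TPM or more in a group the 3 nearest genes in pattern among those averaging 2 TPM or more in a group and no predicted or clone name. Other settings were the replicate number as a block, no filter, 1 TPM required in 3 libraries, a pseudocount of 0.1, omission of single libraries, array weights, quantile normalization, median-of-ratios scaling, all 4 groups in one fit, and tumors without shST3GAL3 tumors 1 and 3. Promoter windows came from RefSeq, and gene neighbours from GENCODE M21. Plots used Python 3.11.15 and matplotlib 3.10.9.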

Additional observations from a re-analysis of the deposited data

How the results depend on the processing

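The count of called members was 0 in every comparison and setting, except in tumors with array weights, where it was 1, St6gal1. The log2 change of St6gal1 in tumors ran from -0.53 without shST3GAL3 tumors 1 and 3 (limma adjusted p = 0.251) to -0.35 under median-of-ratios scaling, and from -0.47 to -0.36 over the omission of single libraries (adjusted p 0.0739 to 0.246). Of the other member changes, all uncalled, these turned sign, and the cause was not tested. St6galnac4 in culture was -0.016 under median-of-ratios scaling, -0.0026 under quantile normalization and -0.038 with array weights, and ran from -0.085 to 0.12 over omissions. St6galnac6 was 0.050 in culture with array weights (omissions -0.062 to 0.070), 0.021 in tumors under median-of-ratios scaling, and for the difference 0.077 and 0.0011 under median-of-ratios scaling and quantile normalization (omissions -0.12 to 0.016). St8sia4 without shST3GAL3 tumors 1 and 3 was -0.069 in tumors (omissions -0.080 to 0.12) and -0.065 for the difference (omissions -0.075 to 0.12). Other changes moved without those 2 tumors but kept their sign. St6galnac6 was then -0.12 in tumors and -0.12 for the difference, St6galnac2 in tumors was -0.060, and the difference of St6gal1 was -0.42. St6galnac2 in tumors ran from -0.26 to 0.074 over omissions, and it too turned sign, at 0.074 without shControl tumor 3. Median-of-ratios scaling moved the median log2 change of all genes for the difference to 0.046, against -0.06 as reported. In all, 220 member changes kept direction and call, 24 turned sign and 1 passed the threshold.

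Counts of all genes called in tumors moved from 225 to 2 with a replicate block, 82 with no filter, 599 with all 4 groups in one fit, 795 with array weights, 72 without shST3GAL3 tumors 1 and 3, and 38 to 229 over omissions. In culture, with 4 genes, they ran up to 15, and for the difference, with 116, from 0 with a replicate block to 259 with array weights. Same-numbered libraries did not deviate together (correlations -0.0597, -0.0651 and -0.155 in culture and -0.144, -0.0169 and 0.0489 in tumors). With 3 libraries per group, such correlations cannot settle whether the numbers pair the libraries. The block left 0 members called in each comparison. The fit of 4 groups was not run for the difference. Depth is unknown, so how far it limits the members under 1 TPM cannot be said.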

Other observations

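Some alpha-2,6 and alpha-2,8 sialyltransferase genes outside the 10 members were uneven between libraries, and they are named here after their values were seen. St6gal2, the other ST6GAL enzyme, was at 16.06, 9.87 and 0 TPM in shST3GAL3 tumors, against 0, 4.20 and 7.49 TPM in shControl tumors. Both tumor groups thus held a library listed at 0 beside libraries above 4 TPM, while culture libraries of both lines were at no more than 0.13 TPM. St8sia2, the other polysialyltransferase, was listed at 0 in all culture libraries and was at 0.12 to 0.23 TPM in tumors of both lines. St8sia3, a further alpha-2,8 enzyme, was at 0.09, 0.23 and 0.01 TPM in shST3GAL3 culture, against 0.97, 0.01 and 0 TPM in shControl culture. St8sia5 was listed at 0 in every tumor.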
